A study of Mus musculus with 7 samples.

Results

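Fgf, Bmp and Gdf ligands are secreted growth factors that direct the formation of limbs, skeleton, brain, heart and gonads. The 44 genes described here are all symbols of the deposited H3K27me3 gene-body count tables that begin with Fgf, Bmp or Gdf, continue with a number and at most 1 letter, and occur once in the table. They comprise 22 Fgf, 12 Bmp and 10 Gdf symbols among 23220 symbols present once. The symbol alone decided which genes belong, but the set was chosen with earlier results of these data known. H3K27me3 chromatin of wild-type CD1 mouse spermatocytes, isolated from testes by Percoll fractionation, was compared at postnatal day 17 (P17) and postnatal day 12 (P12). Per the sample titles, the P17 data pooled 2 replicates, and the P12 title gives no replicate number. Each gene had 1 value per stage. Differences between stages therefore have no replicate check, and no p-value was computed.

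H3K27me3 is a repressive histone mark deposited by Polycomb repressive complex 2, known for holding developmental regulators silent in cells that do not use them. Fgfs signal through receptor tyrosine kinases that activate the MAP kinase cascade. Bmps and Gdfs belong to the TGF-beta superfamily and signal through paired serine/threonine kinase receptors that phosphorylate SMAD proteins. In the mouse, Fgf9 acts in male sex determination, and Bmp4, Bmp8a and Bmp8b act in forming or maintaining germ cells. Not every symbol is a ligand of its family. Bmp1 encodes a procollagen protease, Bmp2k encodes a protein kinase, and Fgf11, Fgf12, Fgf13 and Fgf14 encode intracellular Fgf homologous factors that bind voltage-gated sodium channels.

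Reads counted over gene bodies totalled 26664736 at P17 and 13462873 at P12, and all 44 genes had reads at both stages. Levels are given in CPM, the reads of a gene scaled to the total of its table. Each log2 ratio is P17 over P12 with an exact 95% interval that covers counting error only. The ratio of the typical gene, the median of 21808 genes with at least 20 reads, was -0.08 on the log2 scale, and the 10th to 90th percentiles ran from -0.34 to 0.47. A gene is called above the typical gene where the lower end of its interval exceeded that median, and below where the upper end was under it. Gene lengths were not used, so a level is compared between stages and not between genes. In bulk chromatin, more cells with the mark and more mark per cell cannot be told apart. Input libraries were not analysed here, so a stage difference cannot be told apart from a difference in enrichment between the immunoprecipitations.

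The genes with the largest ratios differed in the base composition of their promoters, which is shown because CpG-rich promoters are the usual targets of Polycomb repressive complex 2. The 250 bases before the start are printed 5′ to 3′ from RefSeq (GRCm38.p6), with each CpG in capitals. They belong to the 3 highest ratios and the lowest ratio, those of Fgf11 (chr11:69802281-69802530, minus strand), Gdf15 (chr8:70632096-70632345, minus strand), Gdf11 (chr10:128891719-128891968, minus strand) and Gdf2 (chr14:33940789-33941038, plus strand).
Fgf11: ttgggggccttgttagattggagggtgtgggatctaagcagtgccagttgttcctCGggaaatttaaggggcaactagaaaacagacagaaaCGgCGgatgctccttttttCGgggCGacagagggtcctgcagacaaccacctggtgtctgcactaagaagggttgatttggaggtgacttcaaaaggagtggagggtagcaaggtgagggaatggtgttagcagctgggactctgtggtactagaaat
Gdf15: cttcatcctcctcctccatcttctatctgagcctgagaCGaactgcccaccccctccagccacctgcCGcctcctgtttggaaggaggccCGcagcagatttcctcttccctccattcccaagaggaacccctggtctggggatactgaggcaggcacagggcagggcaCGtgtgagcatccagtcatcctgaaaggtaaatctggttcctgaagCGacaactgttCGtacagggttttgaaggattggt
Gdf11: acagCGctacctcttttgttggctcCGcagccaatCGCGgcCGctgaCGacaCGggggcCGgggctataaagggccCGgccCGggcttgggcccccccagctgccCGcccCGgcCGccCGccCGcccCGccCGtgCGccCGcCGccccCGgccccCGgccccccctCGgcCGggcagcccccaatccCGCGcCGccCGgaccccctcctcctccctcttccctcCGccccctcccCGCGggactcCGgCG
Gdf2: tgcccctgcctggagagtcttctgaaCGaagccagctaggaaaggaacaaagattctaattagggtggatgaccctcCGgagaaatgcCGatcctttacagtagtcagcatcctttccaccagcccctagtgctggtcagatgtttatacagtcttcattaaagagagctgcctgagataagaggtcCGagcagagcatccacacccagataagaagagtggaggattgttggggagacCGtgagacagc

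The windows of Fgf11, Gdf15 and Gdf2 held 5, 6 and 5 CpGs, and that of Gdf11 held 33. RefSeq windows were found for 30 of the 44 genes. Those without one were Bmp1, Bmp2, Bmp3, Bmp7, Fgf1, Fgf8, Fgf15, Fgf16, Fgf17, Fgf20, Gdf3, Gdf5, Gdf6 and Gdf9. A window was called CpG-rich with an observed-to-expected CpG ratio over 0.6 and a GC content over 50%, taking the window with the most CpGs where a gene had several. By this measure 13 of the 30 windows (43.3%) were CpG-rich, against 46.6% of 15790 windows of all genes with at least 20 reads. The family shares were 7 of 16 Fgf, 3 of 8 Bmp and 3 of 6 Gdf windows. The 13 genes with CpG-rich windows had a median log2 ratio of 0.17 and a range of -0.22 to 0.82. The other 17 had a median of 0.10 and a wider range, -0.37 to 1.30. Over all genes the medians were -0.09 for CpG-rich and -0.07 for other windows. The 10th to 90th percentiles of all genes ran from -0.31 to 0.40 for CpG-rich and from -0.38 to 0.49 for other windows. The wider spread was thus not particular to the members. The windows with the most CpGs after Bmp2k, with 39, were those of Fgf18 (37), Gdf10 (35), Gdf11 (33) and Fgf13 (33). Their log2 ratios ran from -0.22 for Bmp2k to 0.82 for Gdf11, so dense windows occurred on both sides of the typical gene. The counts are in mm9 and the windows in GRCm38.p6, so the starts shown need not be those of the counted gene models.

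The log2 ratio was positive, a larger share of the reads at P17, for 29 of the 44 members, against 8314 of 21808 genes. Of the 44 members, 28 were above the typical gene and 14 spanned it. The fibroblast growth factor gene Fgf7 and the kinase gene Bmp2k were below it. Over all genes, 21.2% were above and 10.1% below. Since the typical ratio was -0.08, a call of above does not require a larger share at P17. Fgf14 was called above at -0.03, and the intervals of Fgf21, Gdf10, Fgf2, Bmp3 and Fgf3, also above, contained 0. More reads give narrower intervals, and the median member had 1099 reads at P17 and 502 at P12, against 360 and 180 for all genes. With at least 1000 reads over both stages, 22 of 29 members were above, against 36.4% of all such genes. Fgf14 was at the edge of its call, and 27 members were above when the minimum was 1 read or 100 reads. The members' median log2 ratio was 0.15, and 10 of the 44 ratios exceeded the 90th percentile of all genes. Only Fgf11 and Gdf15 were over 2-fold higher at P17 with an interval excluding a ratio of 1, against 2.57% of all genes. No member was over 2-fold lower, against 0.335% of all genes.

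**Figure D1:**
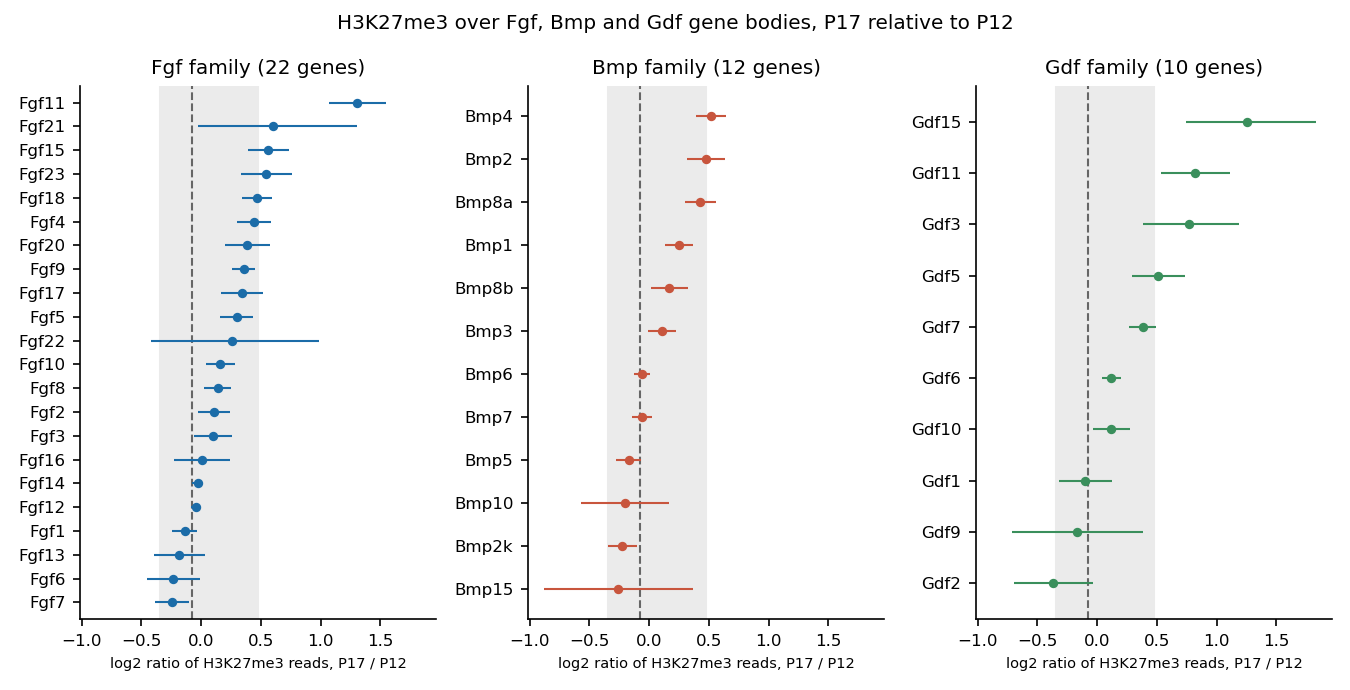
Log2 ratio of gene-body H3K27me3 reads, P17 over P12, for each Fgf, Bmp and Gdf gene, with exact 95% counting intervals; the dashed line is the all-gene median (-0.08) and the grey band the 10th to 90th percentiles of all genes. Fgf11 and Gdf15 lie farthest to the right, at 1.30 and 1.25, and most other genes lie within the band and right of the dashed line.

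The 3 families overlapped in their ratios, and their difference was not tested, since members are not replicates. Among the 22 Fgf genes 15 were above and 1 below the typical gene, with a median log2 ratio of 0.21 and a range of -0.25 to 1.30. Of the 12 Bmp genes 6 were above and 1 below, with a median of 0.03 and a range of -0.26 to 0.52. The 10 Gdf genes had 7 above and 0 below, a median of 0.25 and the widest range of the 3, -0.37 to 1.25. All-gene shares were 21.2% above and 10.1% below, so the counts below are too small to set the families apart. By its median, the Bmp family thus stood nearest the typical gene. It held no ratio over 2-fold, against 1 Fgf gene, 1 Gdf gene and 2.57% of all genes, a share too small to set the families apart. Ratios over the all-gene 90th percentile numbered 4 of 22 Fgf, 2 of 12 Bmp and 4 of 10 Gdf genes. The families differed in reads, with P12 medians of 177 for Gdf, 502.5 for Fgf and 767 for Bmp genes. Fewer reads widen the scatter of ratios, so ranges and counts over the percentile are not like for like between families. With at least 1000 reads over both stages, 13 of 16 Fgf, 6 of 10 Bmp and 3 of 3 Gdf genes were above, against 36.4% of all such genes. Without the 6 symbols that encode no secreted ligand, the median was 0.28 over 18 Fgf genes and 0.03 over 10 Bmp genes. Without Bmp8a and Bmp8b the Bmp median was -0.06.

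Summed over a family, the reads gave smaller ratios than the medians for Fgf and Gdf. The Fgf genes together held 1775 CPM at P17 (exact Poisson 95% interval 1759 to 1791) and 1670 CPM at P12 (1648 to 1692), a log2 ratio of 0.09 (0.07 to 0.11). Fgf12 and Fgf14 held 50.3% of these reads at P17 and 54.7% at P12, and without them the ratio of the sum was 0.22 (0.19 to 0.26). The Bmp genes held 829 CPM at P17 and 787 CPM at P12, a ratio of 0.08 (0.04 to 0.11), which was 0.12 without Bmp6. The Gdf genes held 366 CPM at P17 and 312 CPM at P12, a ratio of 0.23 (0.18 to 0.28), which was 0.31 without Gdf6. The Gdf sum thus had the highest and the Bmp sum the lowest ratio with and without these genes, while the Fgf ratio moved most. With all genes, however, the Fgf and Bmp intervals overlapped. Without the named genes, the Gdf interval (0.24 to 0.38) overlapped that of Fgf. The order is therefore not resolved throughout, even against counting error.

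**Figure D2:**
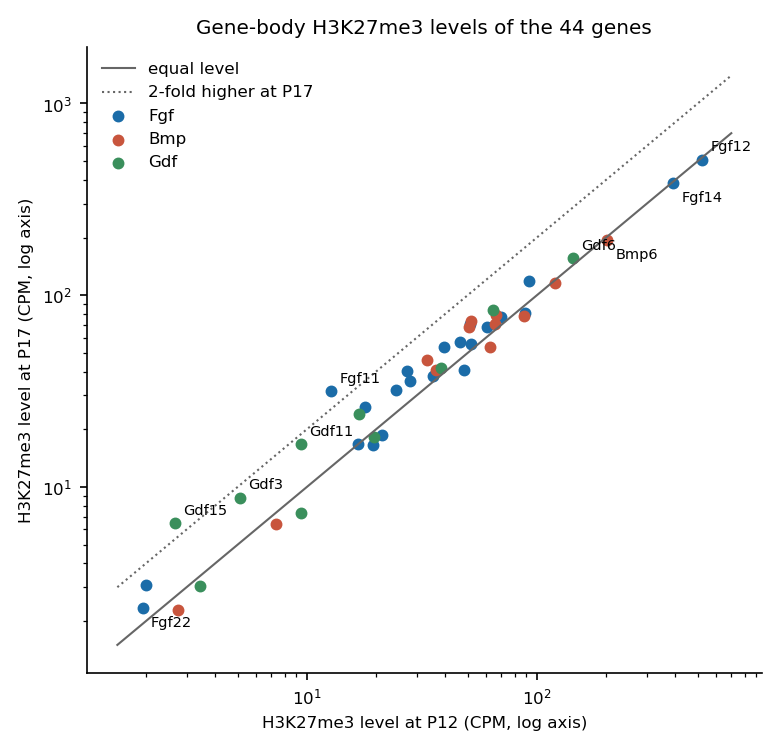
Gene-body H3K27me3 level of the 44 genes at P17 (vertical) and P12 (horizontal) in CPM, both on log axes, coloured by family; the solid line marks equal levels and the dotted line a 2-fold higher level at P17. Fgf11 and Gdf15 lie above the dotted line, and Fgf12 and Fgf14, the genes with the most reads, lie close to the solid line. Levels are not corrected for gene length.

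The intracellular Fgf homologous factors, which act inside neurons and other excitable cells, held both the largest Fgf ratio and the largest read counts. Fgf11 had 842 reads (31.6 CPM) at P17 and 172 reads (12.8 CPM) at P12, a log2 ratio of 1.30 (1.07 to 1.55). Its ratio exceeded that of 98.7% of genes. Fgf12 had 13561 reads (509 CPM) at P17 and 7032 reads (522 CPM) at P12, a ratio of -0.04 (-0.08 to 0.00). Fgf14 had 10229 reads (384 CPM) at P17 and 5266 reads (391 CPM) at P12, a ratio of -0.03 (-0.08 to 0.02). These heavily read genes thus had narrow intervals that contained 0. Fgf13, on the X chromosome, had 18.7 CPM at P17 and 21.2 CPM at P12 and spanned the typical gene at -0.18.

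All 3 endocrine Fgfs, hormones that act with Klotho coreceptors, were above the typical gene and stood close together at 0.54 to 0.60. Fgf15, the mouse counterpart of human FGF19 and an intestinal regulator of bile acid synthesis, had 1074 reads (40.3 CPM) at P17 and 367 reads (27.3 CPM) at P12, a log2 ratio of 0.56 (0.39 to 0.74). Fgf23, the bone-derived phosphate hormone, had 696 reads (26.1 CPM) at P17 and 241 reads (17.9 CPM) at P12, a ratio of 0.54 (0.33 to 0.76). Fgf21, the hepatic fasting hormone, rested on 82 reads at P17 and 27 reads at P12, and its interval of -0.03 to 1.30 also contained 0. All 3 ratios exceeded the 90th percentile of all genes.

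Among paracrine Fgfs, those of the Fgf8 group were above the typical gene in all 3 cases. Fgf18, a factor of skeletal growth, stood at 70.8 CPM at P17 and 51.3 CPM at P12, a log2 ratio of 0.47 (0.34 to 0.59). Fgf17 followed at 0.34, and Fgf8, which patterns the midbrain and limb, at 0.14 (0.03 to 0.25). In the Fgf9 group, Fgf9 itself had 3156 reads (118 CPM) at P17 and 1244 reads (92.4 CPM) at P12. Its log2 ratio was 0.36 (0.26 to 0.45). Fgf20, a close relative of Fgf9 that acts in ear and kidney, stood at 0.39, while X-linked Fgf16 had 16.8 CPM at P17 and 16.7 CPM at P12, a ratio of 0.00 that spanned the typical gene.

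In the Fgf4 group, 2 of 3 genes were above the typical gene. Fgf4, which is needed by the early embryo, stood at 53.5 CPM at P17 and 39.4 CPM at P12, a log2 ratio of 0.44 (0.30 to 0.59). Fgf5, which ends the growth phase of hair, stood at 56.7 CPM at P17 and 46.1 CPM at P12, a ratio of 0.30. Fgf6, a muscle-expressed Fgf, had 442 reads (16.6 CPM) at P17 and 262 reads (19.5 CPM) at P12, a ratio of -0.23 (-0.46 to -0.01) that spanned the typical gene. Fgf6 was thus the member of the group that was not above it. In the group around Fgf7, the limb and lung bud factor Fgf10 stood at 0.16 (0.04 to 0.28) and the inner ear factor Fgf3 at 0.10, both above the typical gene. Fgf22, on 62 reads at P17 and 26 reads at P12, spanned it. Fgf7, the keratinocyte growth factor, had 1089 reads (40.8 CPM) at P17 and 652 reads (48.4 CPM) at P12, a ratio of -0.25 (-0.39 to -0.10), and was the only Fgf gene below the typical gene. Of the prototype pair that lacks a signal peptide, Fgf2 stood at 0.11, above the typical gene, and Fgf1 at -0.14 (-0.24 to -0.03), spanning it.

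Within the Bmp family, Bmp2 and Bmp4 stood highest. Bmp4, which induces primordial germ cells and ventral mesoderm in the mouse embryo, had 1967 reads (73.8 CPM) at P17 and 694 reads (51.5 CPM) at P12, a log2 ratio of 0.52 (0.39 to 0.64). Bmp2, its close relative in heart and bone formation, had 1229 reads (46.1 CPM) at P17 and 446 reads (33.1 CPM) at P12, a ratio of 0.48 (0.32 to 0.64). These ratios exceeded the 90th percentile of all genes, and no other Bmp ratio did. The related genes Bmp5, Bmp6, Bmp7, Bmp8a and Bmp8b summed to 497 CPM at both stages. Inside it, Bmp8a, a factor of germ cell maintenance, stood at 68.5 CPM at P17 and 50.9 CPM at P12, a ratio of 0.43 (0.30 to 0.56). Bmp8b, which acts in primordial germ cell formation, stood at 40.7 CPM at P17 and 36.2 CPM at P12, a ratio of 0.17 (0.01 to 0.33). Bmp8a and Bmp8b are close paralogs, so the assignment of their reads is uncertain. The hepcidin regulator Bmp6, with 194 CPM at P17 and 202 CPM at P12, stood at -0.06, the kidney and eye factor Bmp7 at -0.06 and the ear and skeleton factor Bmp5 at -0.17. These last 3 spanned the typical gene.

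The remaining Bmp symbols lay near or under the typical gene, except Bmp1 and Bmp3. Bmp3, an inhibitor of bone formation, stood at 0.11, above the typical gene. Bmp10, a heart factor, stood at -0.20 on 170 reads at P17 and 99 reads at P12. Bmp15, an X-linked oocyte factor, had the lowest Bmp ratio, -0.26 (-0.88 to 0.37), on 61 reads (2.29 CPM) at P17 and 37 reads (2.75 CPM) at P12. That interval is too wide to place it on either side. The protease gene Bmp1 had 79.1 CPM at P17 and 66.5 CPM at P12, a ratio of 0.25 (0.14 to 0.37). The kinase gene Bmp2k had 1426 reads (53.5 CPM) at P17 and 840 reads (62.4 CPM) at P12, a ratio of -0.22 (-0.35 to -0.10). The 2 enzymes thus fell on opposite sides of the typical gene. The X-linked members Bmp15, Fgf13 and Fgf16 all spanned the typical gene, as did 14992 of 21808 genes. None of these members had 1000 reads over both stages.

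Gdf genes held 3 of the 4 highest ratios of all 44. Gdf15, a stress-induced hormone that signals to the hindbrain, had 172 reads (6.45 CPM) at P17 and 36 reads (2.67 CPM) at P12, a log2 ratio of 1.25 (0.75 to 1.83). Gdf11, which patterns the trunk along the body axis, had 444 reads (16.7 CPM) at P17 and 127 reads (9.43 CPM) at P12, a ratio of 0.82 (0.53 to 1.12). Gdf3, a factor of pluripotent cells and early embryos, had 234 reads (8.78 CPM) at P17 and 69 reads (5.13 CPM) at P12, a ratio of 0.77 (0.38 to 1.18). All 3 were above the typical gene, with differences between stages of 3.78 CPM for Gdf15, 7.22 CPM for Gdf11 and 3.65 CPM for Gdf3. The joint and skeletal factors were all above the typical gene. Gdf5 stood at 0.51 (0.29 to 0.74), Gdf7 at 0.38 (0.27 to 0.50), and Gdf6, the most read Gdf gene with 156 CPM at P17 and 143 CPM at P12, at 0.12 (0.04 to 0.20).

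At the other end, Gdf2, the circulating Bmp9 that signals through Acvrl1 in endothelium, had 195 reads (7.31 CPM) at P17 and 127 reads (9.43 CPM) at P12. Its log2 ratio of -0.37 (-0.70 to -0.03) was the lowest of the 44 genes, and 8.45% of all genes had a lower one, yet its interval reached the typical gene. Gdf10, its neighbour on chromosome 14, stood at 0.12, above the typical gene. The oocyte factor Gdf9 stood at -0.17 on 81 reads at P17 and 46 reads at P12. Gdf1, which acts in left-right patterning, stood at -0.10 with 488 reads at P17 and 264 reads at P12. Cers1, a ceramide synthase gene that overlaps Gdf1 in GRCm38.p6, had exactly the same reads at both stages, so the reads given for Gdf1 cannot be told apart from those of Cers1.

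The order of genes in the GRCm38.p6 annotation was used to set members beside their flanking genes, a comparison chosen after the ratios had been seen. Fgf11 lay among genes with like ratios: Chrnb1, an acetylcholine receptor subunit gene, stood at 1.23 (0.98 to 1.48) and Tmem102 at 1.49 (1.27 to 1.73). Gdf11 stood between Cd63, a tetraspanin gene at 1.66 (1.42 to 1.91), and Sarnp at -0.23 (-0.40 to -0.06). Gdf3 stood between Dppa3, a gene of germ cells and early embryos at 1.14 (0.90 to 1.39), and Apobec1 at 0.07 (-0.14 to 0.29). Gdf15 differed from both neighbours, Lrrc25 at -0.07 and Pgpep1 at 0.12. The higher share at P17 was therefore shared with both flanking genes at Fgf11, with 1 at Gdf11 and at Gdf3, and with neither at Gdf15.

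Members that are neighbours of each other did not always match. On chromosome 7, the log2 ratio was -0.35 at the chloride channel gene Ano1, 0.10 at Fgf3, 0.44 at Fgf4 and 0.56 at Fgf15, in that gene order. Bc1, the flanking gene after Fgf15, stood at -0.10 (-0.16 to -0.03) and spanned the typical gene. On chromosome 6, Fgf23 at 0.54 (0.33 to 0.76) lay next to Fgf6 at -0.23 (-0.46 to -0.01), and these intervals did not overlap. Over all members, 76 distinct flanking genes were no members and had at least 20 reads, of which 22 (28.9%) were above and 8 below the typical gene, against 21.2% and 10.1% of all genes. Their median log2 ratio was -0.07. Of 27 members above the typical gene with such a neighbour, 14 had at least 1 above it, and so did 6 of the 16 other members. The share of all genes with at least 1 flanking gene above was not computed, so these counts have no background and are not read further. Flanking genes that overlap a member are included in them. In GRCm38.p6, 12 members overlapped a flanking gene, and reads in the shared stretch cannot be assigned to 1 gene. They include Fgf7 with Fam227b, which stood at -0.21, and Bmp4 with Gm15217, which stood at 0.90.

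**Figure D3:**
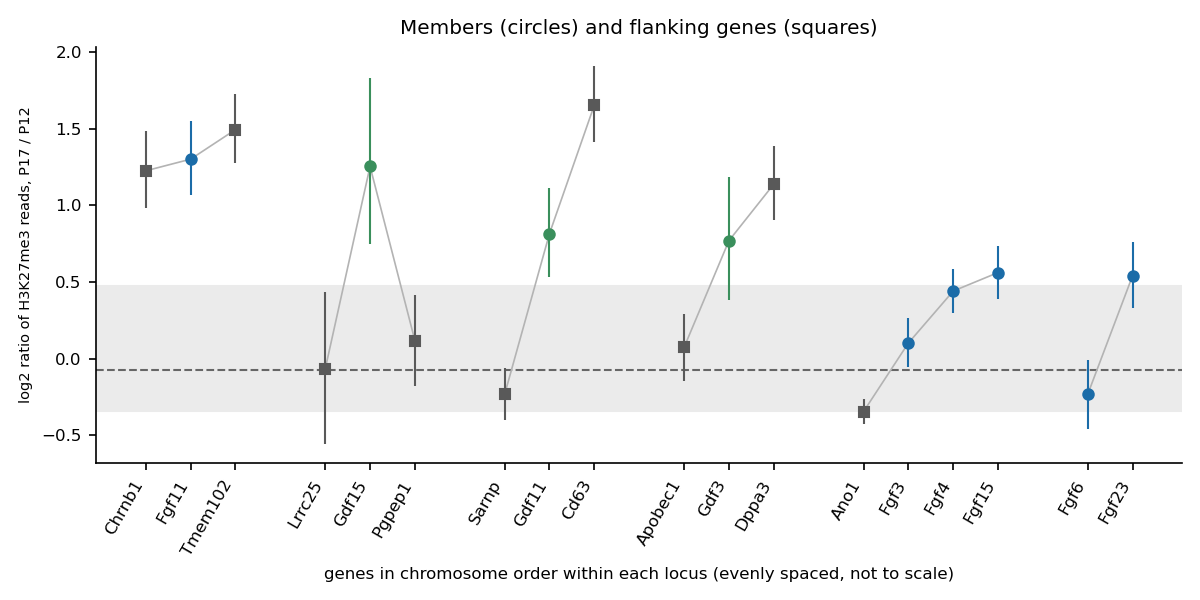
Log2 ratio of H3K27me3 reads, P17 over P12, with exact 95% counting intervals, for members (circles) and flanking genes (squares) at 6 loci, in gene order and evenly spaced; the dashed line and grey band are the all-gene median and 10th to 90th percentiles. Fgf11 and both its neighbours lie above 1, whereas Gdf15 stands alone between neighbours near the dashed line.

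Other genes of the same pathways were described from 6 lists. Of 92 genes measured, 91 had at least 20 reads. In these, 52 were above and 6 below the typical gene, 9 were over 2-fold higher and 0 over 2-fold lower, and the median log2 ratio was 0.19. Over all genes the shares were 21.2% above, 10.1% below, 2.57% over 2-fold higher and 0.335% over 2-fold lower. With at least 1000 reads over both stages, 41 of 60 pathway genes were above, against 36.4% of all such genes. Receptors had the lowest medians of the 6 lists, though both exceeded the typical ratio of -0.08. They were 0.14 over 7 FGF receptor and coreceptor genes and 0.03 over 17 BMP and GDF receptor and coreceptor genes. In these lists 5 of 7 and 8 of 17 were above and 1 gene in each was below. With at least 1000 reads, 5 of 6 and 7 of 15 were above. Fgfr4 was highest of the first list at 0.68 (40.7 CPM at P17 and 25.3 CPM at P12), and Fgfr2 lowest at -0.16. Acvrl1, the receptor of Gdf2, led the second list at 0.91 (61.1 CPM at P17 and 32.4 CPM at P12), and the type I receptor gene Tgfbr1 was lowest at -0.24.

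Lists of genes that restrain or transmit these signals are read against the same all-gene shares, 21.2% above, 10.1% below and 2.57% over 2-fold higher. With at least 1000 reads over both stages, 36.4% of all genes were above. Among such genes, 7 of 10 FGF pathway inhibitors and transducers and 8 of 10 SMAD genes and BMP targets were above. So were 8 of 12 BMP and GDF antagonists and 6 of 7 other TGF-beta superfamily ligands. Of 16 FGF pathway inhibitors and transducers, 10 were above and 0 below the typical gene, with a median log2 ratio of 0.33 and 3 genes over 2-fold higher. Those 3 were Fgfbp3, an Fgf-binding protein gene, at 2.23 (24.9 CPM at P17 and 5.27 CPM at P12), the feedback inhibitor gene Spry2 at 1.73 and the ERK phosphatase gene Dusp6 at 1.54. Fgfbp1 was lowest at -0.13. Of 14 SMAD genes and BMP targets, 10 were above and 2 below, with a median of 0.27. The target genes Id3 at 1.57 (39.7 CPM at P17 and 13.4 CPM at P12) and Id2 at 1.25 and the inhibitory SMAD gene Smad7 at 1.01 were over 2-fold higher, and Smad2 was lowest at -0.29. Among 20 BMP and GDF antagonists 9 were above and 2 below, with a median of 0.18. The activin-binding follistatin gene Fst was highest at 1.32, over 2-fold higher, and Twsg1 lowest at -0.36. Among 17 other TGF-beta superfamily ligands 10 were above and 0 below, with a median of 0.33. Inhbe at 1.64 and Tgfb1 at 1.44 were over 2-fold higher, and Lefty1 was lowest at -0.15.

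**Figure D4:**
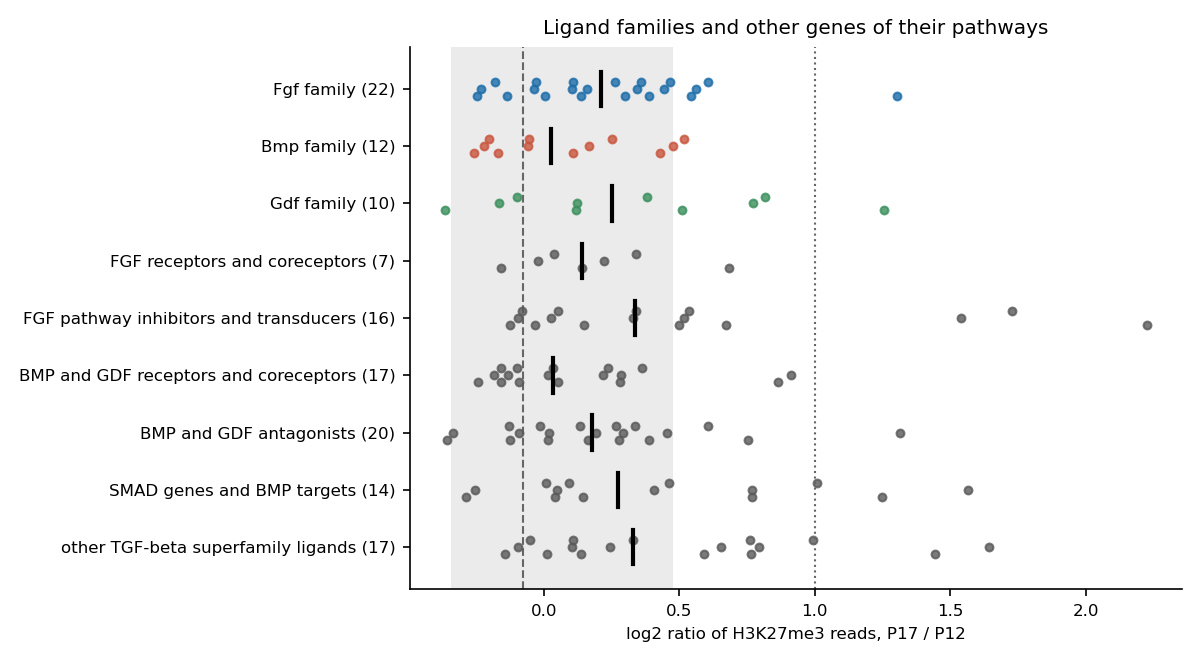
Log2 ratio of H3K27me3 reads, P17 over P12, of each gene in the 3 families and in 6 lists of other pathway genes, with the number of genes in brackets; black bars are medians, the dotted line is a 2-fold higher share, and the dashed line and grey band are the all-gene median and 10th to 90th percentiles. Ratios over 1 occur for 1 Fgf gene, 1 Gdf gene and no Bmp gene, and for 9 genes of the 6 lists, none of them in the receptor lists. Over all genes, 2.57% were over 2-fold higher with an interval excluding a ratio of 1.

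Marker genes of testicular cell types were read the same way, although H3K27me3 reads do not count cells or transcripts and cannot check the spermatocyte label. Of 9 Sertoli markers 5 were above and 0 below the typical gene, with a summed level of 580 CPM at P17 and 431 CPM at P12. Of 8 Leydig and peritubular markers 2 were above and 1 below, with 201 CPM at P17 and 199 CPM at P12. The 9 spermatogonial markers had 2 above and 2 below, with 860 CPM at P17 and 956 CPM at P12. The 10 spermatocyte markers had 0 above and 5 below, with 174 CPM at P17 and 211 CPM at P12. Over all genes, 21.2% were above and 10.1% below, and the shares above in the Leydig and peritubular list and in the spermatogonial list were near that background. With at least 1000 reads over both stages, 36.4% of all genes were above. Among such markers, 4 of 6 Sertoli, 1 of 2 Leydig and peritubular, 2 of 6 spermatogonial and 0 of 3 spermatocyte genes were above. No measured marker was at 0 reads, and the part of cell makeup in the ligand ratios was not tested.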

How the data were processed

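Read counts over gene bodies for H3K27me3 at P17 and P12 were used as the authors deposited them, unnormalized and with no input subtraction recorded. The file naming gives multiBamCov as the counter. Bowtie, SAMtools, HTSeq and mm9 are named in the submitters' processing notes, with no role or version. Each table had 23530 entries. The 146 symbols with several entries stayed in the totals only.

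Counts were scaled to the table total. The log2 ratio P17 over P12 added 1 read, in proportion to library size, to each count. Its 95% interval is the exact Clopper-Pearson interval of the P17 share of the reads of the gene. At least 20 reads over the 2 libraries were required. Python 3.11.15 with scipy 1.17.1 was used, and R 4.3.3 with edgeR 4.0.16 for TMM factors in an alternative. Full values were given for the 4 highest and 4 lowest ratios, family extremes and genes over 2-fold different, and the other members were given by subfamily. The lists name their extremes and genes over 2-fold. The members and lists were chosen with earlier results of these data known. All 44 symbols matched the GRCm38.p6 table. Peak lists, in mm9 coordinates, were not used here, since no mm9 annotation was used to place genes.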

Additional observations from a re-analysis of the deposited data

How the results depend on the processing

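The count of members above the typical gene was 28 with TMM factors, with median-of-ratios factors and with a total that left out the 13 most-read P12 entries, and 27 with a minimum of 1 read or 100 reads. Fgf14 was the member that changed its call, with a minimum of 1 or 100 reads and with a pseudocount of 5 reads. Counts below the typical gene (2), over 2-fold higher (2) and over 2-fold lower (0) were the same under these 5 scalings and minimums. TMM and median-of-ratios factors moved the all-gene median log2 ratio from -0.08 to 0.00 and each family median with it, to 0.29 for Fgf, 0.10 for Bmp and 0.33 for Gdf with TMM factors. Ratios of Fgf12, Fgf14, Bmp6 and Bmp7, all near 0, turned positive with TMM or median-of-ratios factors, and that of Fgf16 turned negative with the smaller total. With at least 100 reads the medians were 0.16 for Fgf, 0.11 for Bmp and 0.25 for Gdf. Pseudocounts of 0.5 or 5 reads gave 0.21 and 0.20 for Fgf, 0.03 for Bmp and 0.25 for Gdf. The Bmp median lay near 0 and changed sign to -0.06 without Bmp8a and Bmp8b. The sums without the most read members were added after the data had been seen. Reads over Fgf21, Fgf22, Gdf3, Gdf15, Gdf9, Bmp15 and Bmp10 at P12 numbered 26 to 99, which limits what their ratios show. Peaks at member genes were planned and not run. No paired analysis was possible because each stage had 1 value per gene.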
